A study of Mus musculus with 12 samples.

Results

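The copies of each gene that come from C57BL/6J (B6) were followed from the pure strain into its hybrids with Cast/EiJ (Cast), a wild-derived strain. The members are the B6 alleles of 10743 autosomal genes, out of 34964 autosomal genes and 37991 genes in all. A unique hit is a read pair that fits a single gene and, in a hybrid, a single allele of it. A gene was taken when such hits on both alleles together averaged 50 or more over the 6 F1 libraries. Such hits depend on the level of a gene in the hybrids as well as on its polymorphisms. The rule did not use F0 B6, so a gene with few hits in the hybrids was left out whatever its F0 level. It is therefore not independent of the differences described here.

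All samples were whole retinas of male mice aged 8 weeks, each library a pool of 6 to 8 retinas, with no treatment. F0 B6 carries B6 alleles only. F1 B6xCast had a B6 father and a Cast mother, and F1 CastxB6 had a Cast father and a B6 mother, so the B6 allele is the paternal copy in the first cross and the maternal copy in the second. There were 3 libraries per group, 9 in all, and 3 further libraries of F0 Cast served as side values. The values compared are count equivalents, which are the authors' estimates of read pairs per gene or allele, scaled by them so that each column has nearly the same total (12648792.3 to 13843914.4). The same model gave each allele of a hybrid a column of its own, so equal expression per allele gives equal values in F0 and F1, and a gene read from a single parental copy can reach about the double in that copy.

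Gene expression depends on sequences next to the gene, which act in cis on their own copy, and on factors such as transcription factors and signals, which diffuse and act in trans on both copies. In the pure strain the B6 allele meets B6 factors only, and in the hybrid it meets B6 and Cast factors together. The cis sequence of the allele is the same in both, while the factors around it, the number of B6 copies (1 from a single parent in a hybrid, a copy from each parent in F0 B6, so that imprinting also changes the level) and the way it was measured differ. The hybrids also differed from F0 B6 in lanes (2 against 1) and in the reference used for mapping (both strains' transcripts against B6 transcripts alone), and these cannot be told apart from the hybrid background.

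B6 unique hits per library were 10363519 to 11888819 in F0 B6 and 4362511 to 6248716 in the hybrids, where only reads over a polymorphism count. Of these libraries 2 stood apart from their groups on the third principal component (14.1% of the variance), F0 B6 replicate 1 at 14.4 and F1 B6xCast replicate 1 at 17, with the other 7 between -11.2 and 3.29, and the main counts below are also given without them. The tissue carried the transcripts that define retina: the rod transducin Gnat1 had a mean of 207333 count equivalents in F0 B6, the Mueller glial enzyme Glul 37633 and the bipolar receptor Grm6 1717. The log2 differences of Gnat1 (-0.01 ± 0.06, SE) over both crosses, Glul (-0.12, adjusted p = 0.428) and Grm6 (-0.31, adjusted p = 0.0872) from F0 B6 did not pass. Of the markers of other tissues, Mobp, Olig1, Olig2 and Myh2 were at 0 in all 9 libraries. The summed level of 7 blood genes was 1420 to 1842 in F0 B6, 938.5 to 1140 in F1 B6xCast and 931.9 to 1042 in F1 CastxB6, and that of 24 complement and microglial genes was 1818 to 2027, 1555 to 1725 and 1568 to 1600. Both sums were therefore lower in every hybrid library, while those of retinal pigment epithelium (18 genes), lens (25), endothelium and pericytes (23), oligodendrocytes (12) and muscle (12) overlapped between the groups. In bulk tissue, fewer cells of a type and less RNA per cell cannot be told apart.

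Most B6 alleles did not pass as different in the hybrids, which does not show that their levels were equal. The median log2 difference between the mean of both crosses and F0 B6 was 0.01, and 90% of genes lay between -0.30 and 0.29. At an adjusted p under 0.05, 350 of 10743 genes passed, a background of 3.26%, with 203 higher (1.89%) and 147 lower (1.37%). Before adjustment, 1753 genes had a limma p under 0.05. Each cross was then set against F0 B6 on its own. In F1 B6xCast 230 genes passed (2.14%), 139 higher (1.29%) and 91 lower (0.847%). In F1 CastxB6 198 genes passed (1.84%), 0.94% of all genes as higher and 97 (0.903%) as lower. Both crosses were compared with the same 3 F0 B6 libraries. Called differences of at least 2-fold were found in 16 genes that were higher and 40 that were lower. All 6 hybrid values lay outside the range of F0 B6 on 1 side in 197 of the 203 and 131 of the 147 genes, beside 9.75% of all genes tested. Without the pair of libraries that stood apart, 451 genes passed for the mean of both crosses, 266 for F1 B6xCast and 350 for F1 CastxB6. Without F0 B6 replicate 2, the counts were 140, 92 and 106. Without F0 B6 replicate 3 they were 206, 118 and 134, and without F1 CastxB6 replicate 2 they were 218, 169 and 104. F1 B6xCast passed 121 and 153 genes without its replicate 2 or 3, and F1 CastxB6 passed 122 and 111 without its replicate 1 or 3 and 314 without F1 B6xCast replicate 1.

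**Figure D1:**
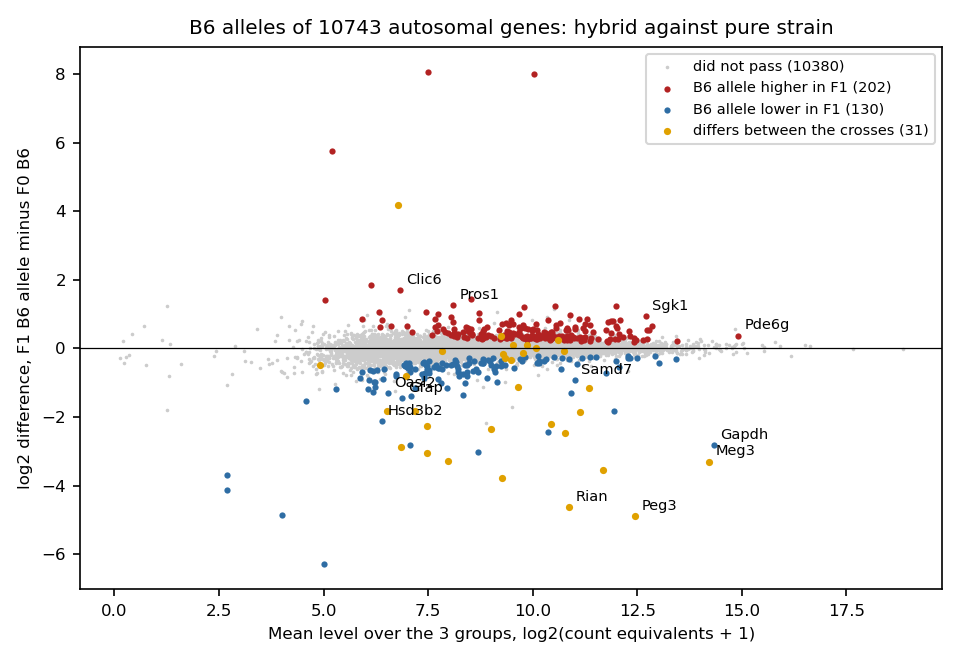
Log2 difference between the B6 allele in the hybrids (mean of both crosses) and in F0 B6 (y axis) against the mean level of the gene over the 3 groups, log2(count equivalents + 1) (x axis), with 1 point per gene. Red and blue points passed the test as higher (202) or lower (130), gold points (31) differ between the crosses, and grey points did not pass. The points spread around the zero line at all levels.

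Of the 147 lower genes 17 and of the 203 higher ones 1 also differed between the crosses, which leaves 130 and 202. These are mostly imprinted genes, where a mean over both crosses joins an active and a silent copy, and they are described at the end.

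How many reads could be assigned to an allele went along with how often genes passed. Where B6-specific unique hits amounted to less than 5% of the B6 count equivalents, 23 of 102 genes passed (22.5%). Of the 196 genes at 5 to 10% 11.2% passed, of the 674 at 10 to 20% 8.16%, of the 2724 at 20 to 40% 3.41%, and of the 7047 at 40% and over 2.23%. The excess lay on the higher side. Below 20% the calls were 84 higher and 16 lower, and at 40% and over they were 50 higher and 107 lower. Whether this ratio plays a part in single results was not tested. It is given below beside many of the genes but not all. Among those described without it, Phf10 had 17.6% and Calb1 16.7%.

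**Figure D2:**
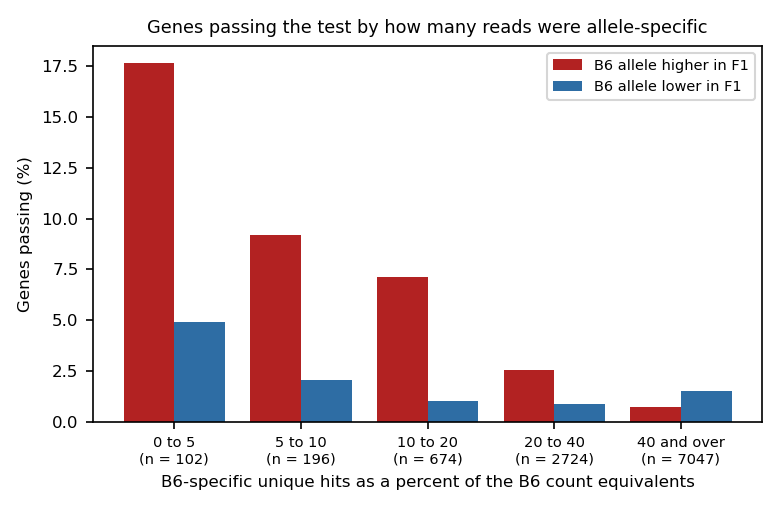
Percent of genes passing the test (y axis) as higher (red) or lower (blue) in the hybrids, by B6-specific unique hits as a percent of the B6 count equivalents (x axis, with the number of genes tested per bin). Higher calls are most frequent in the bins on the left, and lower calls exceed higher ones only at 40% and over.

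The 12 genes with the largest rise by the naming rule were Clic6, Pros1, Mkln1, Sncg, Sgk1, Capzb, Ywhah, Fndc1, Stmn1, March8, Vapb and Retsat, and of the 12 with the largest fall 10 are described, Gapdh, Hsd3b2, Gfap, Dnahc9, Oasl2, Lrp2, Hdc, Samd7, Gzmm and Phf10. All 24 passed in each of the 9 fits that left out a single library. Their allele-specific support differed, since 8 of the 12 that rose but 2 of the 12 that fell had hits under 20% of the count equivalents.

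Clic6, a chloride intracellular channel protein (NCBI37 chr16:92485981-92541488), showed the largest rise among the genes named by the rule. Its B6 level was 55.6, 37.6 and 41.2 in the F0 libraries, 143, 141 and 128 in F1 B6xCast, and 157, 154 and 148 in F1 CastxB6. All hybrid libraries were far above all F0 libraries, and the crosses lay close together. The difference was 1.69 ± 0.13 (log2, SE; adjusted p = 4.6e-05), or 3.23-fold, with 1.61 in F1 B6xCast and 1.77 in F1 CastxB6. The Cast allele, measured in the same hybrids, stayed at 42.3, near its F0 Cast level of 31.5 (adjusted p = 0.265). The ratio of hits to count equivalents was 75.4%.

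Pros1 encodes protein S, a ligand of the receptors through which shed photoreceptor outer segments are taken up by the pigment epithelium (chr16:62854133-62929172). Its B6 allele was at 143, 108 and 164 in F0, at 326, 527 and 324 in F1 B6xCast and at 364, 265 and 246 in F1 CastxB6. The hybrid values spread more widely than those of F0 but did not overlap with them. The difference was 1.27 ± 0.19 (adjusted p = 0.0046), with 1.48 and 1.07 in the 2 crosses. F0 Cast had a higher level than F0 B6, 548, and the Cast allele of the hybrids was lower than that, at 402 (adjusted p = 0.0487), so both alleles of the hybrids lay between the strains.

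In 5 of the risen genes the Cast allele moved the opposite way, and in the hybrids the alleles were farther apart than the pure strains. Sgk1, a kinase induced by glucocorticoids (chr10:21601990-21719709), was at 4010, 4030 and 4430 in F0 B6, at 8060, 8230 and 7850 in F1 B6xCast and at 8060, 8410 and 7300 in F1 CastxB6. The F0 and F1 libraries formed separate and narrow groups, 0.94 ± 0.06 apart (adjusted p = 6.07e-06). Its Cast allele was at 1620, against 3907 in F0 Cast. Sncg, gamma-synuclein, a marker of retinal ganglion cells, had a B6 mean of 1157 in F0 and 2263 and 2293 in the crosses, with its Cast allele at 327 against 1103 in F0 Cast. Capzb, the beta subunit of the actin-capping protein, went from 1427 to 2547 and 2610, with Cast at 73.7 against 1427. Ywhah, the eta form of 14-3-3 protein, went from 2513 to 4253 and 4507, with Cast at 462.5 against 2190, and Stmn1, the microtubule regulator stathmin, from 1123 to 1887 and 1850, with Cast at 15.5 against 715. In these 5 genes unique hits were 4.34 to 10.3% of the count equivalents, a low ratio beside the 40% and over of 7047 genes tested. Capzb, Ywhah, Stmn1 and Fndc1 no longer passed when all 18 columns were fitted with the library as a block.

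In 4 of the risen genes the difference was under 0.2 on the deposited log expression. Mkln1, which codes for muskelin, rose from 2093 to 4283 and 5900 count equivalents (1.25 ± 0.13, adjusted p = 0.000369), but by 0.00 on the authors' log expression, which adjusts for transcript length. Vapb, a membrane tether of the endoplasmic reticulum, gave 0.70 and 0.01, the ubiquitin ligase March8 0.71 and 0.15, and Retsat, which reduces retinol, 0.69 and 0.09. Their hits were 12.7, 18.8, 28.6 and 23.9% of the count equivalents. Fndc1, a fibronectin type III protein, rose by 0.75 and had 0.36 on the log expression, where it did not pass, with hits at 11%. The 12 that fell were lower on both scales.

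**Figure D3:**
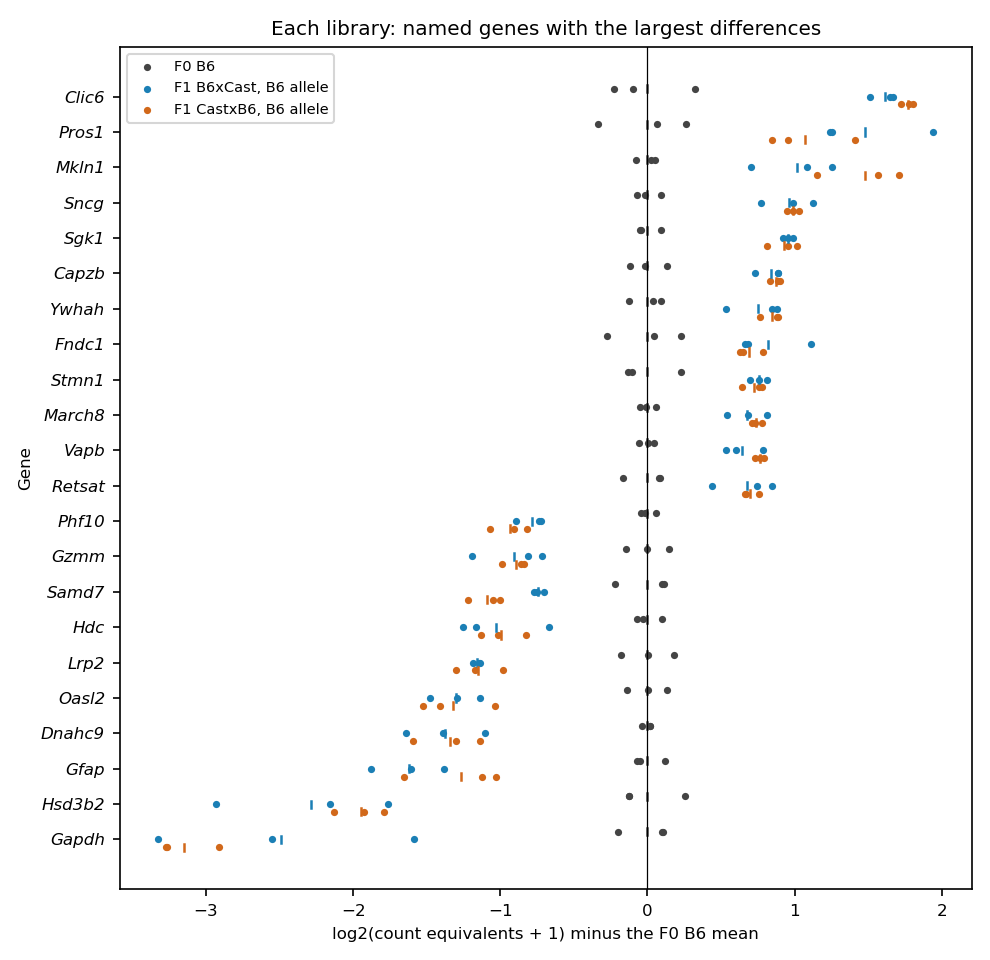
Level of the B6 allele in each library as log2(count equivalents + 1) minus the F0 B6 mean (x axis) for 22 of the 24 genes with the largest differences by the naming rule (y axis); dots are libraries, short bars group means, grey F0 B6, blue F1 B6xCast, orange F1 CastxB6. No hybrid dot overlaps with an F0 dot, which the rule required, and both crosses lie on the same side.

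Among the genes that fell was a marker of glia. Gfap, the intermediate filament that astrocytes hold and that Mueller glia build up after injury (chr11:102748650-102762226), was at 189, 216 and 192 in F0 B6, at 53.3, 64.5 and 75.7 in F1 B6xCast and at 96.9, 62.4 and 90.8 in F1 CastxB6. Even the highest hybrid value was well under the lowest of F0. The difference was -1.45 ± 0.16 (adjusted p = 0.000472), a 2.72-fold lower level, with -1.62 and -1.27 in the crosses. Its Cast allele had a mean of 99.9 in the hybrids and 142 in F0 Cast (adjusted p = 0.069). Hits were 71% of its count equivalents.

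Samd7, a rod repressor that works with Polycomb complexes (chr3:30645215-30666096), was the photoreceptor gene with the largest fall. It was at 2550, 3210 and 3180 in F0 B6, at 1740, 1760 and 1820 in F1 B6xCast and at 1430, 1480 and 1270 in F1 CastxB6. Every hybrid library was lower than every F0 library, with CastxB6 lowest. The difference was -0.92 ± 0.08 (adjusted p = 0.000105), and that between the crosses did not pass (adjusted p = 0.601). The Cast allele moved the other way, from 6567 in F0 Cast to 9170 in the hybrids (adjusted p = 9.24e-05), and hits were 82.8% of the count equivalents.

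The same arrangement, with B6 lower and Cast higher than in their own strains, was seen in 2 enzymes. Hsd3b2, a 3 beta-hydroxysteroid dehydrogenase of steroid synthesis (chr3:98513178-98528499), was at 154, 201 and 154 in F0 B6, 36.9, 48.9 and 21.2 in F1 B6xCast and 43.5, 48 and 37.7 in F1 CastxB6, a difference of -2.12 ± 0.23 (adjusted p = 0.000384). No hybrid value came near those of F0, while the Cast allele was at 462 against 196 in F0 Cast. It has near-identical family members, so its reads could be split between them. Hdc, which makes histamine from histidine (chr2:126419403-126445035), was at 359, 328 and 318 in F0 B6, 210, 149 and 140 in F1 B6xCast and 165, 152 and 188 in F1 CastxB6. The groups were again apart, by -1.01 ± 0.13 (adjusted p = 0.00173), and the Cast allele was at 522.5 against 218.

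In 4 further genes the B6 allele fell and the difference of the Cast allele from F0 Cast did not pass. Lrp2, the endocytic receptor megalin (chr2:69262397-69424122), was at 343, 440 and 389 in F0 B6, 175, 170 and 176 in F1 B6xCast and 172, 157 and 196 in F1 CastxB6. The hybrids thus formed a tight group below F0, with a difference of -1.16 ± 0.10 (adjusted p = 0.000105), and the Cast values were 147 in F1 and 150 in F0 Cast. Dnahc9, an axonemal dynein heavy chain, had a B6 mean of 545 in F0 and 211 and 216 in the crosses, with Cast values of 13.6 and 10.4. Gzmm, the protease granzyme M, had 306, and 164 in each cross, with Cast values of 24.9 and 31.7. Phf10, a subunit of chromatin-remodelling BAF complexes, fell from 682 to 396 and 358, with Cast at 712 and 653. Dnahc9 and Gzmm no longer passed in the fit of all 18 columns.

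Gapdh is listed for its size only. The B6 level of Gapdh, the glycolytic dehydrogenase, was 41100, 50800 and 50500 in F0 B6, 15700, 8060 and 4720 in F1 B6xCast and 4890, 6270 and 4910 in F1 CastxB6. The libraries of F1 B6xCast disagreed for Gapdh, while all hybrid values were below those of F0. Gapdh has many near-identical copies, the hits were 4.4% of its count equivalents, and F0 Cast stood at 302 against 47467 in F0 B6, so its values are uncertain.

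**Figure D4:**
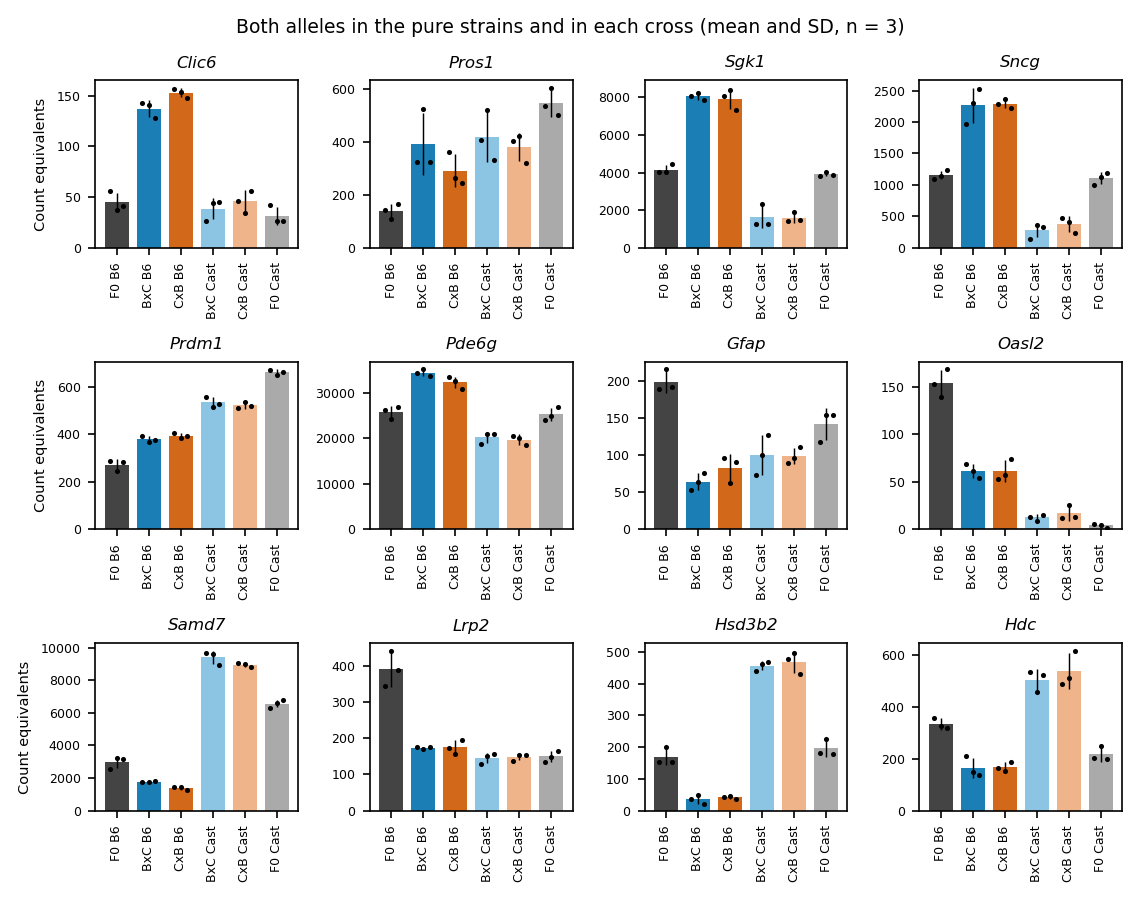
Count equivalents (y axis, from 0) of both alleles for 12 genes, as means with SD of 3 libraries and 1 dot per library; F0 B6 and F0 Cast are the pure strains, BxC and CxB stand for F1 B6xCast and F1 CastxB6, followed by the allele. Clic6 differs in the B6 allele of the hybrids only, both alleles of Pros1 and Prdm1 lie between the strains, and the alleles of Sgk1, Sncg, Samd7, Hsd3b2 and Hdc move apart.

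Of the genes in 41 lists of functions and cell types, 1316 were tested and 60 passed for the mean of both crosses (4.56%, beside 3.26% of all genes tested). The lists are described by their counts and by the median of their log2 differences, to be read beside 0.01 for all genes, of which 45.8% were below 0.

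Interferon-response genes had the lowest median of the function lists, -0.36. The interferon pathway runs from receptors through factors such as Stat2 and Irf9 to antiviral genes, and Irf7 and Irf1 feed back on it. Of 37 listed genes, 24 were under the hit minimum and were not tested. All 13 members tested were below 0, 3 passed as lower and none as higher, and the medians of the crosses were -0.43 (F1 B6xCast) and -0.29 (F1 CastxB6). Without the pair of libraries that stood apart, 4 passed and the median was -0.36. Without F0 B6 replicate 2, Oasl2 alone passed.

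Oasl2, an antiviral 2'-5' oligoadenylate synthetase-like protein (chr5:115346943-115362243), led the list. Its B6 allele was at 153, 139 and 168 in F0, at 69.1, 61.8 and 54.4 in F1 B6xCast and at 52.6, 56.9 and 74.1 in F1 CastxB6. The crosses overlapped with each other, and even the highest hybrid value was far below the lowest of F0. The difference was -1.31 ± 0.14 (adjusted p = 0.000379), a 2.48-fold lower level. F0 Cast had only 3.99 and the Cast allele of the hybrids 14.7 (adjusted p = 0.0152), and hits were 92.4% of the count equivalents.

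B2m, the invariant chain of MHC class I, was at 237, 221 and 203 in F0 B6, 162, 179 and 151 in F1 B6xCast and 162, 138 and 129 in F1 CastxB6. Its groups did not overlap (-0.52 ± 0.10, adjusted p = 0.0219). B2m did not pass in 3 of the 9 fits that left out a library, with adjusted p up to 0.111, and had 0.0782 without the pair that stood apart. Irf7, the factor that amplifies the response, was at 122, 380 and 269 in F0 B6 and between 74.8 and 143 in the hybrids. Its F0 libraries disagreed, replicate 1 lay within the hybrid range, and it did not pass (-1.19, adjusted p = 0.069). Parp14 (-0.96) and Lgals3bp (-0.47) had no overlap between the groups but did not pass. The blood and microglial sums given above, and the microglial receptor Csf1r (150 in F0 B6, 99.1 and 114 in the crosses; -0.49, adjusted p = 0.0296, lost in 6 of the 9 fits), were lower in the same libraries, and their part in these values was not tested.

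Interferon regulatory factors bind a repeat of GAAA. A pair of GAAA spaced by any 2 bases was searched on both strands of RefSeq promoter windows (GRCm38.p6, 250 bases before to 50 after each start), and 246 of the 7642 tested genes with a window held a match (3.22%). Among the 11 list members with a window 4 did. They are shown in capitals, read along the gene's strand, to show what the shared letters look like, and of these 4 genes only B2m passed.
B2m: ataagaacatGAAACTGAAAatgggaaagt
Stat2: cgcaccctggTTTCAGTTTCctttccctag
Ifih1: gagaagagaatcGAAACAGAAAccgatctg
Ddx58: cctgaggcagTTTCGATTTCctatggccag
On GRCm38.p6 these lie at chr2:122147538-122147567, chr10:128270266-128270295, chr2:62646206-62646235 (minus strand) and chr4:40239804-40239833 (minus strand). Stat2 (-0.14), Ifih1 (-0.60) and Ddx58 (-0.31) did not pass. The window of Oasl2 held no match, which says only that the letters are not in it.

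All 10 tested genes of gliosis and injury were below 0 as well, with a median of -0.195 (-0.195 and -0.203 in the crosses), and of these 3 fell, 1 of them in the fits without F0 B6 replicate 2 or 3. A further 10 of the 20 genes in that list were under the hit minimum and were not tested. Besides Gfap, 2 passed. Serpina3n, a protease inhibitor that reactive astrocytes make, was at 37.8, 37 and 47.3 in F0 B6, 18.5, 19 and 6.95 in F1 B6xCast and 16.6, 11.6 and 12.2 in F1 CastxB6. It was low in all groups and lower in every hybrid library (-1.52 ± 0.30, adjusted p = 0.0188), and did not pass without any single F0 library. Stat3, the factor downstream of injury cytokines, was at 939, 1060 and 1020, then 834, 848 and 866, then 854, 826 and 803, a small difference without overlap (-0.26 ± 0.06, adjusted p = 0.0348) that was lost in 7 of the 9 fits. A2m was at 88.4 in F0 B6 and 53.4 and 52.9 in the crosses but did not pass (adjusted p = 0.0997). STAT factors bind TTC and GAA spaced by 3 bases, and the letters TTCNNNGAA, which read alike on both strands, were in 2 of the 9 windows of this list (Gfap and Socs3) and in 8.39% of those of all tested genes. In Gfap they lay at the start of transcription (chr11:102897183-102897212, minus strand). Socs3, a feedback inhibitor of cytokine signals, did not pass (-0.005, adjusted p = 0.997).
Gfap: atgggggtgcTTCCAGGAAgtcaggggcag
General genes of Mueller glia had a median of 0.01, with 2 passing as lower, and Glul, Slc1a3 and Rlbp1 did not pass. The median was -0.105 without F0 B6 replicate 1, and -0.132 without the pair of libraries that stood apart, where 1 passed as higher and 3 as lower. The secreted proteins Clu (6593 in F0 B6, 5417 and 5363 in the crosses; -0.29, adjusted p = 0.0176) and Sparc (2150, 1770 and 1723; -0.30, adjusted p = 0.0294) fell. Clu lost its call without F0 B6 replicate 2 or 3 (adjusted p up to 0.0979), and Sparc in 6 of the 9 fits.

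Clustered protocadherins, cell-surface proteins with which neurons tell their own branches from those of others, had a median of -0.215 (-0.287 and -0.201 in the crosses). Of 24 tested, 20 were below 0 and 5 passed as lower: Pcdhb16, Pcdhb17, Pcdhb18, Pcdhb19 and Pcdhb20. Pcdhb18 was at 228, 244 and 211 in F0 B6, 153, 145 and 141 in F1 B6xCast and 151, 169 and 137 in F1 CastxB6. The hybrids lay together under F0 (-0.61 ± 0.10, adjusted p = 0.0062). Its Cast allele was at 232 against 139 in F0 Cast (adjusted p = 0.0021), and that of Pcdhb16 at 207 against 131. Pcdhb20 was at 274 in F0 B6 and 212 and 197 in the crosses, with a Cast allele at 160 against 46.7. None of the list passed without F0 B6 replicate 2 (the highest adjusted p over the 9 fits was 0.0522 to 0.139 among the 5), and all 5 passed without the pair that stood apart. These genes are alike in sequence, so reads could be split between them, and their hits were 47.7 to 105.7% of the count equivalents.

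Immediate early genes, which neurons switch on within minutes of activity, had a median of -0.226 (-0.165 and -0.288), with 13 of 17 below 0 and 1 passing. Nr4a1, an orphan nuclear receptor, was at 713, 1270 and 602 in F0 B6, 587, 390 and 478 in F1 B6xCast and 350, 386 and 323 in F1 CastxB6. F0 replicate 2 was far above the others and the lowest F0 value only just above the highest hybrid one (-0.99 ± 0.21, adjusted p = 0.0269). Egr1 had the same outlying library, at 719, 1730 and 594 in F0 B6 and 406 to 556 in the hybrids, and did not pass (adjusted p = 0.083), nor did Fos, at 374, 708 and 428 in F0 B6 and 316 to 440 in the hybrids. Ctgf, a secreted matrix protein, passed as higher in the comparison of F1 B6xCast with F0 B6, at 314, 315 and 475 in F0 B6 and 807, 874 and 614 in that cross (1.07, adjusted p = 0.0271), with 639, 445 and 399 in F1 CastxB6, where it did not pass. The difference between the crosses did not pass either. None of the list passed without F0 B6 replicate 2, without F1 B6xCast replicate 2, or without any single library of F1 CastxB6 (adjusted p of Nr4a1 up to 0.0732). Other fits gave more calls: 3 lower without F1 B6xCast replicate 1, 2 lower without F0 B6 replicate 1 or without the pair that stood apart, 1 higher and 2 lower without F0 B6 replicate 3, and 1 higher and 1 lower without F1 B6xCast replicate 3.

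On the authors' log expression, where fewer genes passed, Stat3, Csf1r, Clu, Sparc, Nr4a1, Pcdhb16, Pcdhb17 and Pcdhb19 from these lists kept their direction and did not pass.

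Among the photoreceptor lists, rod phototransduction genes had a median of 0.10 (0.09 in each cross), with 14 of 20 above 0, and 1 passed. Pde6g, the inhibitory subunit that holds the rod phosphodiesterase in check, was at 26300, 24200 and 26900 in F0 B6, 34400, 35200 and 33700 in F1 B6xCast and 33500, 32600 and 31000 in F1 CastxB6. Every hybrid library was above every F0 one (0.37 ± 0.05, adjusted p = 0.00379), a difference of 0.42 in F1 B6xCast and 0.33 in F1 CastxB6. Its Cast allele was lower than in F0 Cast, 20017 against 25300 (adjusted p = 0.0047). The catalytic subunits Pde6a (0.09) and Pde6b (0.15) did not pass. Without the pair of libraries that stood apart, 5 rod genes passed, all higher. On the log expression Pde6g, and below Pde6c and Esrrb, did not pass.

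Cone genes had a median of -0.17 (-0.21 and -0.14), with 8 of 10 below 0. Pde6c, the cone phosphodiesterase, was at 1500, 1440 and 1390 in F0 B6, 1140, 1060 and 972 in F1 B6xCast and 1080, 1250 and 1230 in F1 CastxB6. It was the member that passed (-0.37 ± 0.07, adjusted p = 0.0167), without overlap, but not without F0 B6 replicate 1 or 2 (adjusted p up to 0.0883). Of the list, 3 passed as lower without F1 B6xCast replicate 1 and 2 without the pair that stood apart. The short-wave opsin Opn1sw was at 4513 in F0 B6 and 3807 and 3870 in the crosses (adjusted p = 0.104), the cone transducin subunit Gnb3 at 3913, 3147 and 3003 (adjusted p = 0.0762), and the transducin Gnat2 at 2030, 1853 and 1997.

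Of 14 photoreceptor transcription regulators 1 rose and 2 fell. Prdm1, which steers precursors to the photoreceptor and away from the bipolar fate (chr10:44156983-44248307), was at 287, 244 and 283 in F0 B6, 394, 367 and 377 in F1 B6xCast and 406, 382 and 392 in F1 CastxB6. The hybrids were higher throughout (0.51 ± 0.08, adjusted p = 0.00422). F0 Cast stood at 660 and the Cast allele at 527 (adjusted p = 0.0048), so that both alleles of the hybrids lay between the strains. Besides Samd7, the orphan receptor Esrrb fell, from 8487 to 7440 and 7283 (-0.21, adjusted p = 0.0462), a call lost in 8 of the 9 fits. Crx (0.07), Nrl (0.14), Nr2e3 (0.23) and Rorb (-0.24, adjusted p = 0.0609), which set rod and cone identity, did not pass.

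Other neurons showed few calls. Of 18 ganglion cell genes 13 were below 0, with a median of -0.14, and Sncg, described above, was the member that passed. Of the bipolar genes Grik1, the kainate receptor of OFF bipolar cells, rose from 1093 to 1460 and 1397 (0.39 ± 0.06, adjusted p = 0.0052), with its Cast allele at 1182 against 1407. Among 37 receptors for GABA, glycine and glutamate, Gabra2 (0.49) also passed as higher, with an adjusted p of 0.0464, lost in 8 of the 9 fits. Of 4 horizontal cell genes tested, the calcium buffer Calb1 passed as higher (667 to 937 and 1087, but 0.01 on the log expression, and lost in 6 of the 9 fits) and the tropomyosin Tpm3 as lower (1310 to 1012 and 959). Tpm3 no longer passed in the fit of all 18 columns. The guidance genes Sema7a (-0.36, lost in 2 of the 9 fits) and Sema3b (-0.97, lost in 4) passed as lower, and Slit2 (0.51, but 0.06 on the log expression) as higher, of 51 tested.

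Lists of general cell functions stayed near the median of all genes. Subunits of oxidative phosphorylation had a median of 0.09 with 47 of 62 above 0 and none passing, mitochondrial ribosomal proteins 0.06 with 2 of 68 passing as higher (Mrpl39 and Mrpl49, lost in 7 and 8 of the 9 fits), and proteasome subunits 0.05 with none of 40. Glycolysis and lactate had -0.09, with Gapdh and the mutase Pgam1 (hits 4.1% of the count equivalents) passing as lower of 23, and Pgam1 not without F0 B6 replicate 2 or 3 (adjusted p up to 0.0986). Numbered zinc finger genes had 0.02, and the 6 of 282 that passed (Zfp212, Zfp326, Zfp367, Zfp563, Zfp740, Zfp868) were all higher. On the log expression Zfp326 (-0.06), Zfp367 (-0.27) and Zfp740 (-0.002) were below 0. Of the list, 1 passed as higher without F0 B6 replicate 2, 2 without F0 B6 replicate 1, 3 without F1 CastxB6 replicate 2 or 3, and 3 as higher and 1 as lower without the pair that stood apart. Ribosomal protein genes, whose many processed copies share reads, gave 2 higher and 3 lower of 62, from -3.02 (Rpl38) to 0.86 (Rps15a), and are uncertain. In the mean of both crosses none passed among the visual cycle (14 tested), ribbon synapse (20), amacrine (19), circadian (20), tricarboxylic acid cycle (20), cholesterol (24) and cilium transport (43) lists. In F1 B6xCast against F0 B6, 1 amacrine gene and 1 cilium gene passed as higher.

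**Figure D5:**
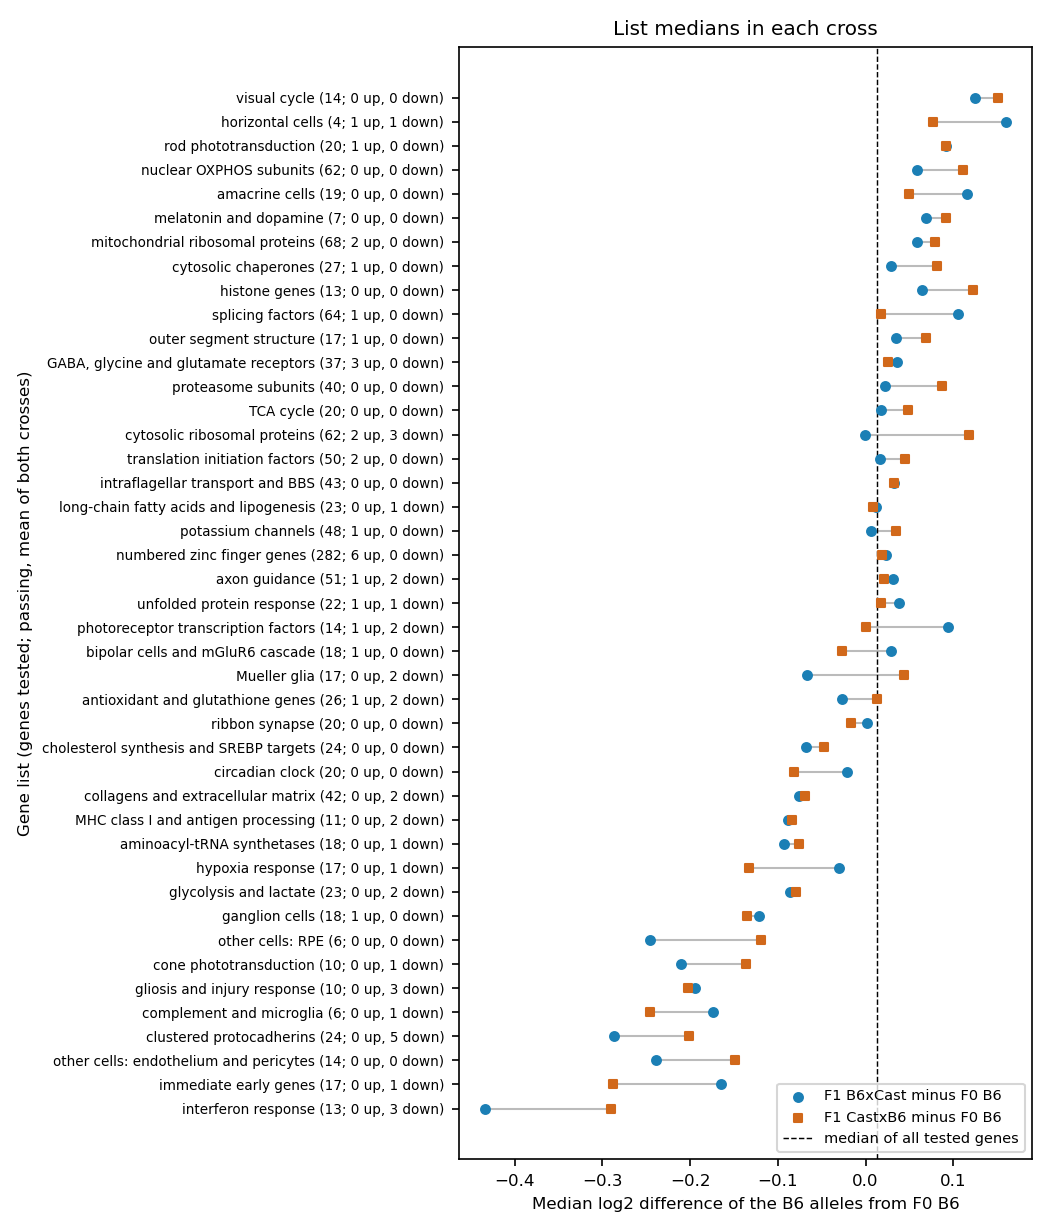
Median log2 difference of the B6 alleles from F0 B6 (x axis) in F1 B6xCast (blue circles) and F1 CastxB6 (orange squares) for each list with at least 4 genes tested (y axis, with the number tested and the numbers passing for the mean of both crosses); the dashed line is the median of all tested genes, 0.01. Interferon genes lie farthest to the left in both crosses, and imprinted genes are left out because their crosses differ.

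Amino acid handling was noticed after the values were seen and was chosen for it. The 6 genes described were picked because they fell. Asns belongs to the unfolded protein response list, where 1 of 22 tested was lower and 1 higher (median 0.02). Gars is among the aminoacyl-tRNA synthetases, with 1 of 18 lower and none higher (median -0.07). Slc7a11 is in the antioxidant and glutathione list, with 2 of 26 lower and 1 higher (median -0.01). The transporters Slc7a1 (arginine and lysine), Slc7a5 (large neutral amino acids), Slc1a4 (alanine and serine) and Slc7a11 (cystine), the asparagine synthetase Asns and the glycyl-tRNA synthetase Gars are known targets of the factor ATF4, which acts when amino acids are short. Slc7a1 was at 475, 356 and 438 in F0 B6, 225, 239 and 228 in F1 B6xCast and 264, 262 and 284 in F1 CastxB6 (-0.75 ± 0.09, adjusted p = 0.00141). Slc1a4 was at 238, 255 and 243, then 128, 165 and 145, then 174, 134 and 153 (-0.72 ± 0.11, adjusted p = 0.00547). Both were lower in every hybrid library. Slc7a11 was at 61.5, 61.7 and 61 in F0 B6, 26.8, 33.6 and 32.4 in F1 B6xCast and 16.3, 25.5 and 26.9 in F1 CastxB6 (-1.19 ± 0.18, adjusted p = 0.00449). Asns was at 465, 440 and 474, then 221, 295 and 328, then 304, 303 and 271 (-0.69 ± 0.11, adjusted p = 0.00834). F0 libraries were nearly equal in both genes and the hybrids well below. Slc7a5 (686 to 484 and 487; -0.50, adjusted p = 0.00171) and Gars (1237 to 1053 and 1063; -0.22, adjusted p = 0.048) had smaller differences, and Gars lost its call in every one of the 9 fits.

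The Cast alleles of these genes are given beside them. Asns was at 607 in the hybrids and 556 in F0 Cast, Slc7a1 at 238.5 and 189, Slc1a4 at 217 and 174, Slc7a11 at 121 and 126, Slc7a5 at 784 and 868, and Gars at 927 and 934. Related genes of the B6 allele that did not pass were Atf4 itself (2920, then 2943 and 2670), Psat1 (463, then 418 and 424), Slc3a2 (1443, then 1470 and 1417), Slc1a5 (128, then 120 and 122), Trib3 (74.5, then 59.3 and 65.2), Sesn2 (300, then 236 and 204) and Ddit3 (524, then 298 and 405).

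ATF4 and its partners bind the letters TGATGNAAN. These were in the promoter windows of 4 of the 5 genes with a window among the 6 that fell, of 1 of 6 among the related genes that did not pass (Trib3), and of 2.55% of the tested genes. The 6 were picked by hand because they fell, and they are known targets of ATF4. The related genes were set apart from them by not passing in these same data. The shares are therefore a description and cannot compare the groups. Whether ATF4 plays a part in these values was not tested. The matches are in capitals, and those of Gars, Slc1a4 and the second of Slc7a11 lie on the other strand.
Asns: cccagccacaTGATGAAACttcccgcacgc
Gars: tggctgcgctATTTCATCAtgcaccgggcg
Slc1a4: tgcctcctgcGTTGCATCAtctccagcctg
Slc7a11: ctcatgtggcTGATGCAAAcctggagaatt
Slc7a11, second: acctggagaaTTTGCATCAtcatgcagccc
They lie on GRCm38.p6 at chr6:7693213-7693242 (minus strand), chr6:55037960-55037989, chr11:20332699-20332728 (minus strand), chr3:50443660-50443689 and chr3:50443642-50443671 (both minus strand).

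The crosses were last compared with each other, a contrast in which the B6 allele came from the father in one and from the mother in the other. The crosses also differ in the mother's strain, the mitochondria and, in males, the X and Y chromosomes, which cannot be told apart from the parent of origin. The B6 allele differed between them in 31 of 10743 genes (0.289%), 9 higher (0.0838%) and 22 lower (0.205%) in F1 CastxB6. Of the 31, 22 were on the list of imprinted genes, of which 32 were tested. Without the pair of libraries that stood apart 31 passed, and on unique hits with edgeR 28.

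Peg3, a paternally expressed zinc finger gene, was at 6220, 6760 and 6150 in F0 B6, at 11200, 9820 and 10400 in F1 B6xCast, where its B6 copy came from the father, and at 0.41, 8.19 and 5.85 in F1 CastxB6. The active copy lay above F0 and the silent one near 0, with 14498 B6 unique hits in the first cross and 4 in the second. Snrpn, Zdbf2, Usp29, Sgce, Ndn and Plagl1 showed the same order, for example Snrpn with 3447 in F0 B6, 6403 in F1 B6xCast and 15 in F1 CastxB6. The maternally expressed RNAs Meg3, Rian and Mirg of chromosome 12 had the reverse order. Rian was at 2320, 1790 and 1970 in F0 B6, 1.63, 1.46 and 0.0361 in F1 B6xCast and 3480, 3670 and 3590 in F1 CastxB6, so that only the maternal B6 copy was read.

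Other genes were biased rather than silent. The growth factor adaptor Grb10 was at 1247 in F1 B6xCast and 2060 in F1 CastxB6 (0.73, adjusted p = 0.00211), and the signal peptide peptidase H13 at 760 and 1440 (0.93, adjusted p = 0.000482). Of the listed genes 2 passed as higher over both crosses but not between them, Commd1 (438 to 693 and 1507; absent from the log expression, where it was -0.14) and Blcap (1130 to 1413 and 1393; 0.32, adjusted p = 0.0453, lost in 7 of the 9 fits). Of the 31, 9 were not on the list, Rasgrf1, Bcl2l1, Nelf, Bbs5, Bmf, Lrrk1, A330076H08Rik, Gm6483 and Gm11408. Rasgrf1, an exchange factor for Ras known to be read from the paternal copy in brain, was at 1870 in F0 B6, 3363 in F1 B6xCast and 33.7 in F1 CastxB6.

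The Cast alleles were set against F0 Cast as a side view of the same genes and hybrids. There 1569 of 10743 passed (14.6%), 1033 higher (9.62%) and 536 lower (4.99%), and F0 Cast itself differed from F0 B6 in 3731 (34.7%). Where the B6 allele was higher, the Cast allele was above F0 Cast in 97 genes and below it in 106, and 45 and 51 of these passed. Where the B6 allele was lower, the Cast allele was above in 107 and below in 40, with 54 and 17 passing. Over all genes tested 5251 were above and 5492 below. The alleles share their libraries and the division of reads between them, so these counts describe the estimates and are no independent view of both alleles.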

How the data were processed

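RNA of whole retina was sequenced in 12 libraries, of which the 9 with B6 alleles carry the comparisons. Per the labels and the study's methods, the authors trimmed read pairs (Trim Galore 0.2.6), aligned them with Bowtie 0.12.9 to strain transcripts (F0) or to both strains' transcripts (F1) on NCBI37, and estimated expression per gene and allele with MMSEQ. They deposited a normalized signal of count equivalents, the natural log of expression, a score that is its posterior SD, and unique hits, which are counts of read pairs. A table of the authors' own comparisons (posterior probabilities and Bayes factors) was not used. Counting did not use strand, so overlapping antisense genes share reads.

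The members and lists were chosen with earlier results of these data known. Genes on X, Y and mitochondria and those under the hit minimum were left out. limma 3.58.1 (R 4.3.3) was fitted with a mean-variance trend to log2(count equivalents + 1) of the 9 B6 columns with a mean per group, p-values were two-sided and adjusted by Benjamini-Hochberg over 10743 genes, and an adjusted p under 0.05 passed. Differences are on that log2 scale, which understates changes of low genes, and ± is the SE of the fit. Cast alleles were fitted likewise against F0 Cast. Replicates are pools of retinas, so p-values measure the spread between pools. The scripts were tested on simulated data. Genes were named by a rule of size, test in both crosses and no overlap for the first 24, as the up to 4 smallest p per list, as the 5 largest cross differences per direction, as retinal markers, or as stated. Alternatives were other scalings, pseudocounts, filters, log expression, edgeR 4.0.16, DESeq2 1.42.0 (both on rounded count equivalents), a replicate block and leaving out each library. Promoter windows came from RefSeq, and 7642 tested genes matched by symbol. Some genes are not reported here.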

Additional observations from a re-analysis of the deposited data

Results flagged for a closer look

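The B6 allele differed between the crosses in 31 genes, tested directly as F1 CastxB6 against F1 B6xCast (limma, adjusted p under 0.05), and 11 of them are given here as log2 differences of F1 CastxB6 from F1 B6xCast. Lower in F1 CastxB6, where the B6 copy is maternal, were Peg3 (-11.2), Snrpn (-8.887), Zdbf2 (-8.659), Gm11408 (-8.363), Usp29 (-8.019) and Sgce (-6.713). Higher there were Rian (10.89), Meg3 (7.949), Mirg (7.495), H13 (0.9256) and Grb10 (0.7306). Differences of genes with a copy near 0 depend on the pseudocount of 1, and the unique hits give the size without it. Over the 3 libraries of F1 B6xCast and the 3 of F1 CastxB6 these were 312 and 0 for Zdbf2, 447 and 1 for Usp29, 1 and 633 for Mirg, 471 and 965 for Grb10, and 1068 and 2461 for H13.

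Gm11408, which is not on the list of imprinted genes, had 315, 355 and 316 count equivalents on the B6 allele of F1 B6xCast, with 1089 unique hits there and 0 in F1 CastxB6. It was listed near 0 in all 3 libraries of F0 B6, while F0 Cast had a mean of 142. No cause was tested.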

How the results depend on the processing

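For the mean of both crosses, 350 genes became 527 with DESeq2, 162 on the log expression (67 higher, 95 lower), 140 with a fold of at least 1.5, and 231 (110 higher, 121 lower) where B6 unique hits were at least 20% of the count equivalents, a choice made after seeing the data. TMM factors gave 334, with 171 higher and 163 lower beside 203 and 147. For F1 B6xCast the 230 genes became 148 with a minimum of 200 unique hits, 377 with DESeq2, 115 on the log expression, 120 with the fold and 149 with the 20% of hits. For F1 CastxB6 the 198 became, in the same order, 131, 380, 105, 114 and 127, and 350 without the libraries numbered 1 of F0 B6 and F1 B6xCast. Between the crosses the 31 became 20 with a minimum of 200 unique hits and 14 with weighted log expression. The 60 called list members became 97 with DESeq2, 29 on the log expression and 20 with the fold. Leaving out single libraries gave 140 to 444, 92 to 230, 104 to 314, 25 to 32 and 20 to 78 in these 5 results. The lowest of the first and last came without F0 B6 replicate 2. Why the counts moved was not tested, apart from the fold and the filters, which keep fewer genes by construction.

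On the log expression the sign turned for Eif4enif1 (-0.07555, weighted -0.07616), Gclm (-0.06729, weighted -0.1162), Zfp367 (-0.265, weighted -0.3049), Zfp326 (-0.05876, weighted -0.0441), Zfp740 (-0.002331) and Commd1 (-0.1446), and the cause was not tested. No other named gene turned its sign under any alternative while called.

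Replicate numbers are shared between groups. The deviations of same-numbered libraries correlated at 0.487, 0.0989 and 0.215 between F0 B6 and F1 B6xCast and at -0.0979 to 0.0162 between the other group pairs. Between F0 B6 and F1 B6xCast, replicate 1 of either group correlated at -0.392 to -0.213 with replicates 2 and 3 of the other. Replicates 2 and 3 correlated across numbers at 0.166 and 0.283. The numbers thus do not pair the samples of all groups, and what the libraries numbered 1 of F0 B6 and F1 B6xCast have in common was not tested. With a replicate block 338, 221, 219, 30 and 53 passed in the 5 results. Few reads over polymorphisms limit the alleles of genes with low ratios of hits to count equivalents, and 3 libraries a group limit small differences.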

Other observations

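Tap2, a subunit of the peptide transporter that loads MHC class I, passed as lower beside B2m among 11 genes of antigen processing (-0.61), and lost its call in 8 of the 9 fits that left out a library. In the outer segment list of 17 genes Prom1, which codes for prominin 1, passed as higher (0.21), also with the call lost in 8 of the 9 fits. Among blood genes Hbb-b1, a beta globin, passed as lower (-0.85, adjusted p = 0.0102 by limma), but not without F0 B6 replicate 2 (adjusted p = 0.068). Of 14 endothelial and pericyte genes none passed while 12 were below 0, with a median of -0.218. Eif4enif1 and Gclm passed as higher on count equivalents only. There Eif4enif1 lost its call in 4 of the 9 fits (limma adjusted p up to 0.134), and Gclm without F0 B6 replicate 2 (0.074).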
